A study of Mus musculus with 24 samples.

Results

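The 48 genes described here encode the glycoproteins and proteoglycans of the extracellular matrix other than collagens. They were taken by gene symbol from a list that was chosen with earlier results of these data known. All 48 have a row in each of the 3 deposited tables, which hold 35687 or 35688 gene rows. By role they fall into 12 adhesive and matricellular glycoproteins, 12 elastic fibre and microfibril proteins, 13 basement membrane proteins, 6 interstitial proteoglycans and 5 other matrix proteins.

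The matrix is the meshwork of secreted proteins that surrounds cells and on which epithelia rest. Adhesive glycoproteins such as fibronectin connect this meshwork to integrins at the cell surface, matricellular proteins such as SPARC and the thrombospondins change how cells attach without bearing load, and small leucine-rich proteoglycans such as decorin bind collagen fibrils and growth factors. The ovarian surface epithelium lies on a basement membrane of laminins, nidogens and perlecan, which is broken and rebuilt around each ovulation. TGF-beta is a well-known inducer of matrix genes in many cell types, acting through SMAD proteins, and several matrix members (decorin, biglycan and the fibrillins) in turn bind TGF-beta or its latent complex.

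The study sequenced poly(A) RNA of cultured mouse ovarian surface epithelial (mOSE) cells in 24 libraries, 8 groups of 3. In the line m1102, attached monolayers and spheroids grown on ultra low attachment plates were each left untreated or given 10 ng/mL of the cytokine TGFB1, for spheroids over 4 days before they were put into low-attachment culture. Further m1102 monolayers carried a lentiviral vector alone (WPI vector) or the same kind of vector with Snail, a transcriptional repressor encoded by Snai1 (Snail overexpression). In a different line, mOSE_BRCA1_fl, derived from BRCA fl/fl mice, adenovirus brought in GFP (BRCA1 wt) or Cre recombinase (BRCA1 ko). All groups shared a medium with serum, ITSS and EGF. Each experiment rests on 1 cell line, and the age of the mice and the length of TGFB1 treatment in monolayers are not given in the labels. The labels do not say that the 3 libraries of a group came from separate cultures, so p-values measure the spread between libraries, which may be technical. All 6 titles of the untreated and TGFB1-treated monolayers, and no spheroid title, carry the mark re-analyzed, so this mark and the culture cannot be told apart.

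Levels are given in scaled TPM, a level per transcript length that the authors multiplied by 1 factor for each library (TPM, transcript abundance relative to a library total of 1000000). A library's sum was 955433 to 1166749 for monolayers and spheroids, 983449 to 1021026 for the vector and Snail libraries and 796668 to 1810667 for the BRCA1 libraries. In the BRCA1 table the largest sums were those of wt 1 (1217651) and wt 3 (1810667). The ko libraries were at 819962, 823502 and 843146 and wt 2 at 796668, so the sums were spread unevenly between the groups compared. The depth of the libraries is unknown, and levels are not compared between tables. Some libraries stood apart from their group: untreated spheroid 3, TGFB1-treated spheroid 1, TGFB1-treated monolayer 1, and BRCA1 wt 2, which was nearer to the BRCA1 ko libraries (r = 0.935) than to its own group (r up to 0.917). Snai1 was at 234, 195 and 193 with the Snail vector and at 13.7, 10.1 and 9.81 with the vector alone. Brca1 was at 5.34, 11.1 and 4.09 in the libraries labelled BRCA1 ko and at 4.27, 12.3 and 3.66 in those labelled BRCA1 wt; the level of the whole gene does not separate the groups, and it says nothing of a deletion of part of the gene. Of 12 ovarian surface and mesothelial markers, Krt8 and Lhx9 were under 1 in the m1102 groups, and Lhx9 was under 1 in the BRCA1 table. Krt19 was also under 1 in TGFB1-treated monolayers and in untreated and TGFB1-treated spheroids.

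Which members are expressed, and at what level, was asked first. A small number of members carried most of the matrix message in every group. In untreated monolayers Sparc, a collagen-binding matricellular glycoprotein, had 2828, 3008 and 2901 scaled TPM, Bgn (biglycan) 1681, 2044 and 1818 and Dcn (decorin) 1223, 1440.0 and 1334. These 3 genes made up 36.6%, 23.2% and 16.7% of the members' summed level, and none of the 3 overlapped the next in the order. Thbs1 and Fbln5 came next, near 308 and 307, and overlapped each other. In TGFB1-treated monolayers Sparc and Bgn again led (35.9% and 27.8% of the sum), and Dcn was in the fifth place behind Thbs1 and Fbln5. In untreated spheroids Sparc still held 34.0% and the next 4 members, Fn1, Bgn, Ecm1 and Dcn, overlapped their neighbours in the order. TGFB1-treated spheroids differed in that Fn1, which encodes fibronectin, was at the head with 58.2% of the sum. In the vector and Snail libraries of m1102 and in the BRCA1 table, Sparc had the highest mean of all members.

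**Figure D1:**
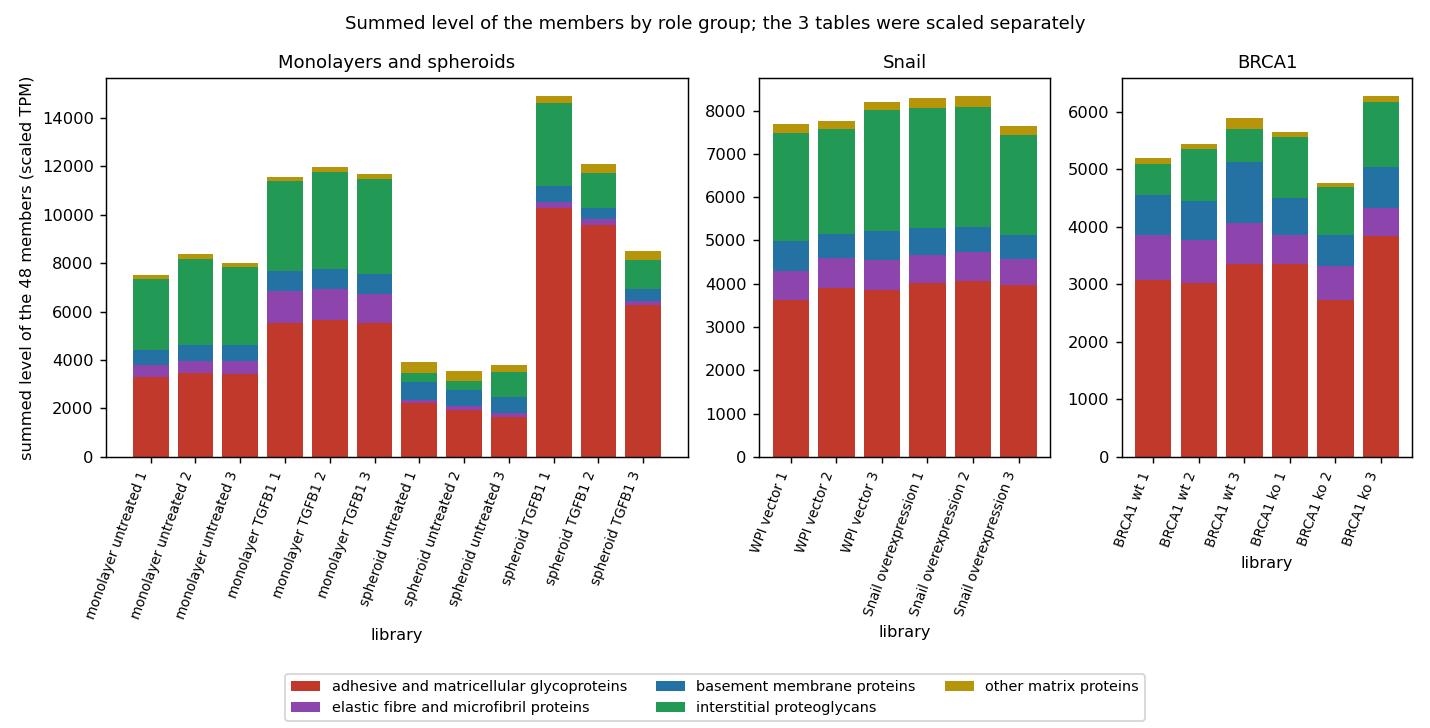
Stacked bars give the summed scaled TPM of the 48 members in each library, divided into the 5 role groups, with 1 panel and 1 vertical scale per separately scaled table. The members' sum was 7500 to 8369 in untreated monolayers, 11550 to 11956 in TGFB1-treated monolayers, 3537 to 3903 in untreated spheroids and 8504 to 14884 in TGFB1-treated spheroids, where adhesive glycoproteins took 69.1% to 79.2% of it.

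Other members had low levels. In all 18 m1102 libraries 13 members stayed under 1: Efemp1, Fbln1, Fbn2, Fmod, Lama2, Lama3, Lum, Mfap2, Mfap4, Nid1, Postn, Thbs2 and Vcan. Of these, Efemp1, Fbln1 and Postn were at 1 or more in all 6 libraries of the BRCA1 table. Postn, the matricellular protein periostin, which is often named as a TGF-beta target, had 0.0246, 0.147 and 0.0221 in untreated and 0.270, 0.510 and 0.779 in TGFB1-treated monolayers. All 3 treated values lay above the untreated ones, yet each was under 1, and Postn was not tested in m1102. Lama2 (a laminin alpha chain) and Thbs2 (thrombospondin 2) were under 1 in all 24 libraries.

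Genes were tested where at least 3 libraries of a table reached a scaled TPM of 1, with limma on log2(scaled TPM + 1), so that fold changes of low genes are understated; the tests are two-sided, and a gene counts as called where its p, adjusted by Benjamini-Hochberg over all genes of the comparison, is under 0.05. This left 34 of the 48 members for monolayers and spheroids, 26 for the Snail experiment and 35 for the BRCA1 experiment. Some passed because of the group in which they were high and so had to differ to be tested: Sparcl1 and Eln reached 1 in TGFB1-treated spheroids alone among monolayers and spheroids, Eln in Snail libraries alone in the Snail table, Lama4 in untreated cells alone, Crispld2 and Fbn1 in TGFB1-treated cells alone, Tgfbi and Dpt in spheroids alone, Nell2 and Ogn in monolayers alone, Lum and Lama3 in BRCA1 ko libraries alone and Vcan in BRCA1 wt libraries alone. Counts and shares over tested members are therefore descriptions, also because the list was chosen with earlier results of these data known. Each log2 fold change is followed by ± its standard error, each mean level by ± SD, with n = 3 libraries per group. Where exons of another gene lie on the opposite strand, as for Fn1, Tnc, Thbs1, Thbs3, Tnxb, Fbn1, Fbn2, Efemp2, Eln, Mfap4, Lama2, Lama3, Nid1, Nid2 and Matn2, values are uncertain to the extent that reads were assigned without strand; Ecm1 overlaps a miRNA gene on its own strand.

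**Figure D2:**
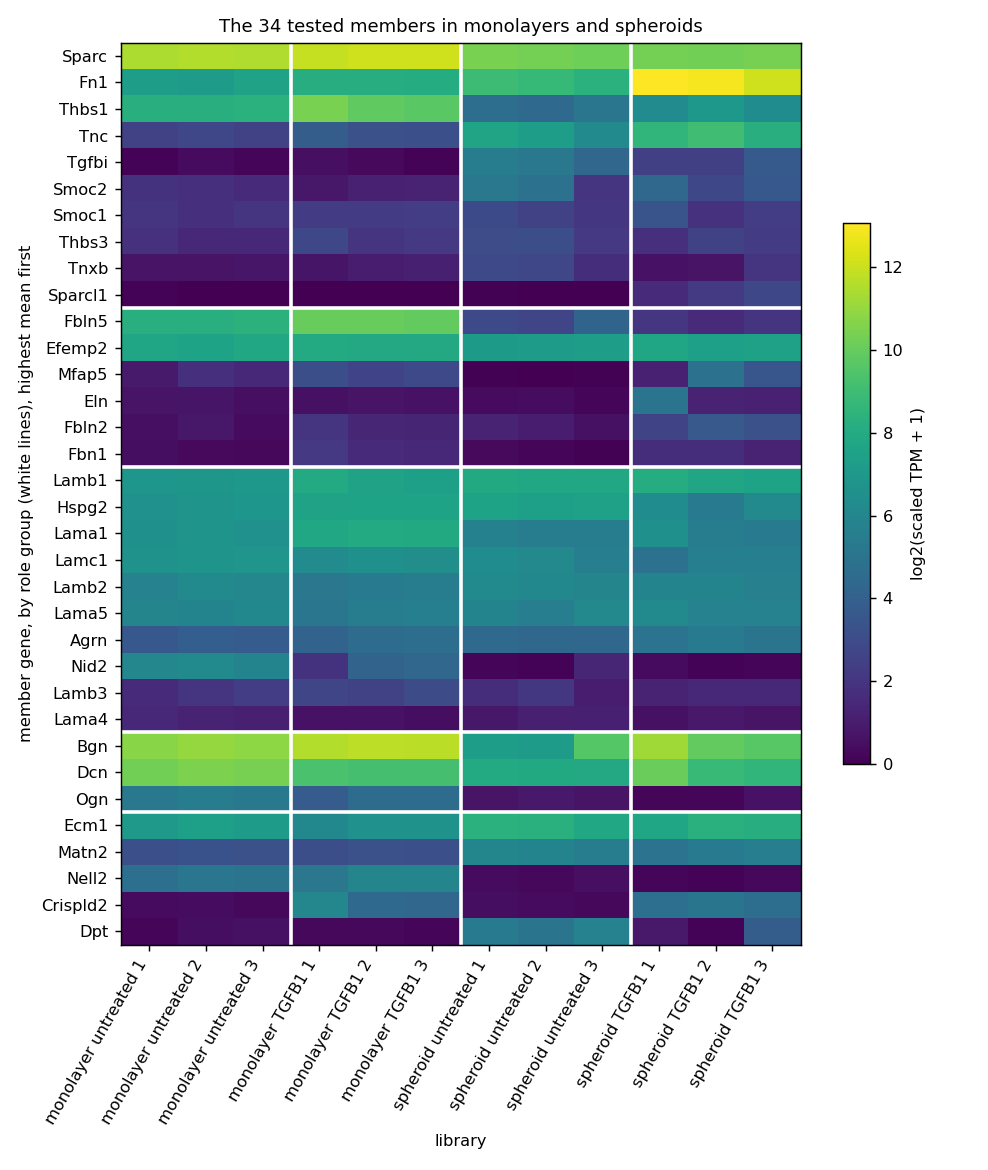
Colour gives log2(scaled TPM + 1) for each of the 34 tested members (rows, by role group, divided by white lines) in each of the 12 monolayer and spheroid libraries (columns, by group). Sparc is high throughout, the proteoglycans Bgn and Dcn are lower in untreated spheroids than in untreated monolayers, and Fn1 is highest in TGFB1-treated spheroids, at 8515, 7649.7 and 4505.

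The next comparison was of untreated spheroids with untreated monolayers, which addresses how the matrix genes differ between the cultures. Spheroid libraries had more message for tenascin-C, transforming growth factor beta-induced protein, dermatopontin, matrilin-2 and fibronectin, and less for decorin, biglycan, osteoglycin, thrombospondin 1, fibulin-5, nidogen-2 and NELL2. Of the 34 tested members 12 were called higher and 11 lower, or 67.6%, where 55.2% of all 13509 tested genes were called (27.6% higher, 27.7% lower). Groups did not overlap in 27 members, against 65.3% of all genes. The members' median log2 fold change was -0.05 and that of all genes 0.01. In bulk RNA, fewer cells of a type and less RNA per cell cannot be told apart. The summed level of the 12 ovarian surface and mesothelial markers moved with culture, from 2204 to 2333 in untreated monolayers down to 272 to 461 in untreated spheroids, and its part in the results was not tested.

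Among the adhesive and matricellular glycoproteins, 6 of 10 tested members rose in untreated spheroids and 2 fell. Tnc encodes tenascin-C, an anti-adhesive hexameric glycoprotein of developing and wounded tissue (chromosome 4, 63959785 to 64047015, minus strand, GENCODE M21 on GRCm38, as for all positions here). Its levels were 4.76, 5.84 and 4.66 in monolayers and 195, 150.5 and 74.4 in spheroids (log2 fold change 4.43 ± 0.33, adjusted p = 1.67e-06). Every spheroid library lay far above every monolayer library, and spheroid 3 was the lowest of its group. Tgfbi, an integrin-binding protein named for its induction by TGF-beta (chromosome 13, 56609523 to 56639562, plus strand), went from 0.103, 0.321 and 0.133 to 44.8, 37.1 and 18.9 (log2 fold change 4.79 ± 0.36, adjusted p = 1.65e-06). The gene was under 1 in each monolayer library and well above 1 in each spheroid library. Fn1 (chromosome 1, 71585520 to 71653200, minus strand) had 159, 148 and 185 in monolayers and 492, 435 and 319 in spheroids (log2 fold change 1.32 ± 0.22, adjusted p = 0.000472), again without overlap. Smoc2, a SPARC-related modular calcium-binding protein, rose from 2.72, 2.36 and 2.02 to 36.3, 29.4 and 3.09 (log2 fold change 2.31 ± 0.69, adjusted p = 0.0144). Spheroid library 3 was close to the monolayers. Without it the log2 fold change was 3.33, and the call was lost without spheroid 1 or without spheroid 2 (adjusted p up to 0.0627). Tnxb (tenascin-X, 1.74 ± 0.39) and Thbs3 (thrombospondin 3, 1.20 ± 0.30) also rose on the log2 scale.

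The members of this group that fell were Sparc and Thbs1. Sparc (chromosome 11, 55394500 to 55423183, minus strand) had 2828, 3008 and 2901 in monolayers and 1392, 1261 and 1173 in spheroids (log2 fold change -1.19 ± 0.09, adjusted p = 2.39e-06). Thbs1, thrombospondin 1, an activator of latent TGF-beta and inhibitor of blood vessel growth (chromosome 2, 118111876 to 118127133, plus strand), had 293, 304 and 326 in monolayers and 25.5, 21.2 and 34.2 in spheroids (log2 fold change -3.49 ± 0.23, adjusted p = 6.69e-07). In neither gene did the groups come near each other. Smoc1 (0.59 ± 0.33, adjusted p = 0.153) and Sparcl1, which was listed at 0.0712, 0 and 0 in untreated spheroids, were not called.

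All 3 tested interstitial proteoglycans fell. Dcn (chromosome 10, 97479609 to 97518143, plus strand) had 1223, 1440.0 and 1334 in monolayers and 256, 247 and 232 in spheroids (log2 fold change -2.44 ± 0.28, adjusted p = 3.76e-05). The libraries of each group were close to each other and far from the other group. Bgn (chromosome X, 73483602 to 73495933, plus strand) had 1681, 2044 and 1818 and 151, 142 and 790.4 (log2 fold change -2.84 ± 0.58, adjusted p = 0.00166). Spheroid 3 was far above its group mates, and without it the log2 fold change of Bgn was -3.65. Ogn, osteoglycin or mimecan, a small leucine-rich proteoglycan, had 36.8, 43.0 and 37.3 and 0.633, 0.845 and 0.629 (log2 fold change -4.55 ± 0.21, adjusted p = 5.16e-08), so that each spheroid library was under 1. As a share of the members' summed level, interstitial proteoglycans took 39.2% to 42.1% in untreated monolayers and 10.5% to 26.8% in untreated spheroids.

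Of the elastic fibre and microfibril proteins, 2 of 6 tested members fell and 0 rose. Fbln5 encodes fibulin-5, which organises elastin on microfibrils (chromosome 12, 101746565 to 101819055, minus strand). It had 289, 300.2 and 332 in monolayers and 6.46, 5.59 and 17.4 in spheroids (log2 fold change -4.99 ± 0.31, adjusted p = 4.65e-07). Efemp2, or fibulin-4, needed for elastin cross-linking, fell by a smaller amount (-0.45 ± 0.09 log2). Fbn1 (fibrillin-1), Fbln2, Eln (elastin) and Mfap5 were not called, all 4 at levels under 3 in each untreated library.

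The basement membrane proteins divided evenly, with 3 of 10 tested members higher and 3 lower. Lamb1, a laminin beta chain (0.94 ± 0.16 log2), Hspg2, the heparan sulphate proteoglycan perlecan (0.72 ± 0.20), and Agrn, the heparan sulphate proteoglycan agrin (0.64 ± 0.15), rose. Lama1 and Lamc1, the laminin alpha 1 and gamma 1 chains, fell (-1.05 ± 0.23 and -0.74 ± 0.21). Nid2, nidogen-2, which joins laminin and collagen IV networks, showed the largest change of any tested member, from 65.8, 73.6 and 58.8 to 0.157, 0.102 and 1.69 (log2 fold change -5.47 ± 0.55, adjusted p = 1.3e-05). It was under 1 in 2 of the 3 spheroid libraries. Lama4, Lama5, Lamb2 and Lamb3 were not called.

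Among the 5 other matrix proteins, Dpt, dermatopontin, a decorin-binding protein, rose from 0.159, 0.409 and 0.501 to 41.1, 31.4 and 53.9 (log2 fold change 4.97 ± 0.71, adjusted p = 0.00016). It was under 1 in each monolayer library and well expressed in each spheroid library. Matn2, the filament-forming matrilin-2, rose (2.54 ± 0.16 log2), as did Ecm1, extracellular matrix protein 1 (0.94 ± 0.19). Nell2, a secreted thrombospondin-like protein, had 26.5, 34.4 and 31.4 in monolayers and 0.294, 0.231 and 0.441 in spheroids (log2 fold change -4.58 ± 0.19, adjusted p = 3.08e-08), under 1 in each. Without the spheroid libraries that stood apart, untreated spheroid 3 and TGFB1-treated spheroid 1, 25 of 32 tested members and 61.6% of all genes were called, 23 of the members the same as before; this alternative was chosen after the data were seen.

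**Figure D3:**
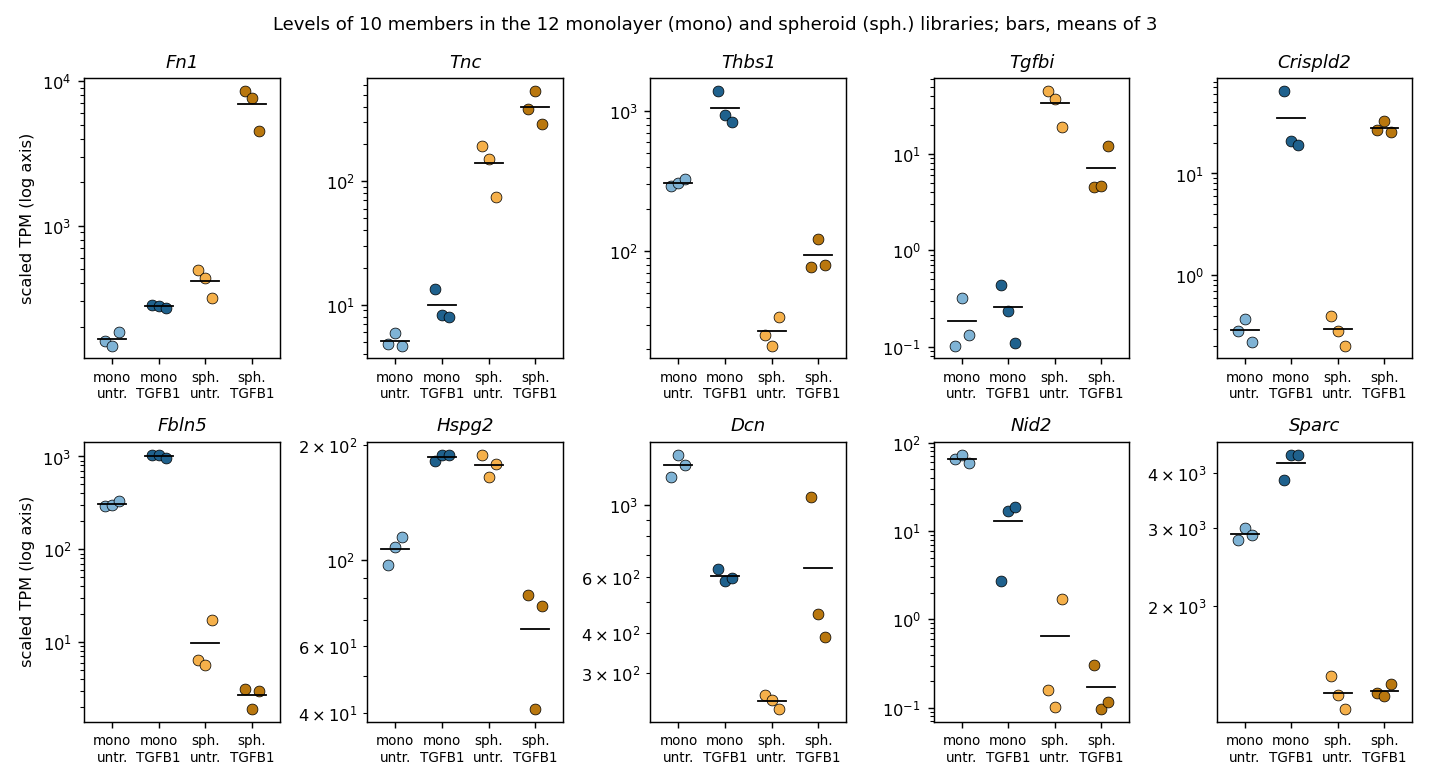
Points give the scaled TPM of single libraries on a log axis (1 vertical scale per panel) for 10 members, by culture and treatment, with a bar at each group mean (n = 3). Tnc and Fn1 are higher in spheroids, and Fbln5, at 3.15, 1.90 and 2.95 in TGFB1-treated spheroids, is far below its monolayer levels.

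How the members respond to TGFB1 in monolayers was compared next. TGFB1-treated monolayers had more message for Crispld2, thrombospondin 1, fibulin-5, fibrillin-1, laminin alpha 1, SPARC and fibronectin and less for nidogen-2, decorin and osteoglycin. Of 34 tested members 12 were called higher and 6 lower, or 52.9%, where 16.9% of all tested genes were called (9.12% higher, 7.79% lower). Groups did not overlap in 28 members, against 47.5% of all genes, and the median log2 fold change was 0.46 for members and 0.01 for all genes. As a check of the treatment, 4 of 5 listed TGF-beta response genes were called higher, Pmepa1, Skil and Ldlrad4 among them, and Smad7 was not (adjusted p = 0.205), with Pmepa1 at 119, 112 and 109 in untreated and 523, 332 and 322 in treated monolayers. The summed level of ovarian surface and mesothelial markers was 1145 to 1508 in treated monolayers, under the untreated 2204 to 2333, and its part in these results was not tested.

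Crispld2, a secreted cysteine-rich protein with LCCL domains that bind lipopolysaccharide, had the largest increase, from 0.286, 0.371 and 0.223 to 64.4, 20.8 and 18.9 (log2 fold change 4.56 ± 0.35, adjusted p = 4.36e-05). Crispld2 was under 1 in each untreated library and well above 1 in all 3 treated libraries, with library 1 far above the others. Among adhesive glycoproteins 3 of 10 tested members rose and 0 fell. Thbs1 had 293, 304 and 326 in untreated and 1388, 939.5 and 842 in treated monolayers (log2 fold change 1.74 ± 0.23, adjusted p = 0.000796). Sparc had 2828, 3008 and 2901 and 3845, 4398 and 4387 (log2 fold change 0.53 ± 0.09, adjusted p = 0.00391). Treated libraries lay above untreated ones in both genes. Fn1 had 159, 148 and 185 and 281, 280.0 and 271 (log2 fold change 0.76 ± 0.22, adjusted p = 0.0385), a call that was lost when any 1 of the 6 libraries was left out (adjusted p up to 0.123). Tnc had 4.76, 5.84 and 4.66 and 13.4, 8.32 and 7.97 (0.81 ± 0.33 log2, adjusted p = 0.122) and was not called although its groups did not overlap. Tgfbi, despite its name, was not called and stayed under 1 in all 6 monolayer libraries (0.436, 0.238 and 0.111 with TGFB1).

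Elastic fibre and microfibril genes had 3 of 6 tested members higher and 0 lower. Fbln5 had 289, 300.2 and 332 in untreated and 1049.6, 1037 and 953 in treated monolayers (log2 fold change 1.72 ± 0.31, adjusted p = 0.00398), with no overlap between tight groups. Fbn1, fibrillin-1, the main component of microfibrils, had 0.404, 0.260 and 0.199 and 3.42, 2.06 and 1.72 (log2 fold change 1.37 ± 0.21, adjusted p = 0.00171). Fbln2, or fibulin-2, passed at a low level (0.96 ± 0.28, adjusted p = 0.0395), and its call was lost when any 1 library was left out (adjusted p up to 0.151). Mfap5, a microfibril-associated glycoprotein, was at 0.902, 2.36 and 1.88 and 7.79, 5.20 and 6.33 and was not called (adjusted p = 0.168).

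In the basement membrane group 4 of 10 tested members rose and 3 fell, where 16.9% of all genes were called. Groups overlapped in none of the 10, where 47.5% of all genes had groups without overlap. Lama1 had 91.6, 106 and 95.7 in untreated and 221, 247 and 242 in treated monolayers (log2 fold change 1.27 ± 0.23, adjusted p = 0.00433). Lamb1 (0.71 ± 0.16 log2), Agrn (0.72 ± 0.15) and Hspg2 (0.79 ± 0.20) rose as well, the last with a call that was lost when any 1 library was left out (adjusted p up to 0.0818). Nid2 fell from 65.8, 73.6 and 58.8 to 2.74, 16.9 and 18.9 (log2 fold change -2.60 ± 0.55, adjusted p = 0.00906), and its lowest value was that of treated library 1, without which the log2 fold change of Nid2 was -1.82. The laminin chains Lamb2 and Lama4 fell (-0.68 ± 0.13 and -0.72 ± 0.15), and Lama5, at -0.56 ± 0.18, was not called (adjusted p = 0.0569).

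Of the interstitial proteoglycans 2 of 3 tested members fell. Dcn had 1223, 1440.0 and 1334 in untreated and 635, 580.1 and 595 in treated monolayers (log2 fold change -1.14 ± 0.28, adjusted p = 0.02). The treated libraries lay far below the untreated ones, yet the call was lost when any 1 library was left out (adjusted p up to 0.0713). With the 6 monolayer libraries fitted alone, 27 of 29 tested members were called, 18 higher and 9 lower, in place of 18, with 30.7% of all genes. Ogn had 36.8, 43.0 and 37.3 and 13.2, 23.4 and 23.8 (log2 fold change -0.97 ± 0.21, adjusted p = 0.0102). Bgn moved the other way, from 1681, 2044 and 1818 to 3043, 3411 and 3315, without overlap and without a call (0.82 ± 0.58, adjusted p = 0.376; adjusted p = 0.00124 with the 6 libraries alone). Among other matrix proteins Nell2 rose (0.71 ± 0.19) and Ecm1 fell (-0.75 ± 0.19). The call of Nell2 was lost without untreated 1 or 3 or treated 2 or 3, and that of Ecm1 without untreated 2 or 3 or treated 1 (adjusted p up to 0.108 and 0.0878).

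The same cytokine was then compared in spheroids. Cells of the treated group had received it over 4 days before they were put into low-attachment culture. TGFB1-treated spheroids had more message for fibronectin, Crispld2, Mfap5, biglycan, fibulin-2, Sparcl1, tenascin-C and decorin, and less for dermatopontin, Tgfbi, perlecan and fibulin-5. Of the 34 tested members 12 were called higher and 7 lower, or 55.9%, where 35.6% of all tested genes were called (18.8% higher, 16.8% lower). Groups did not overlap in 20 members, against 43.9% of all genes. The median log2 fold change was -0.03 for members and 0.00 for all genes. With libraries scaled to equal sums the median of all genes moved by -0.16 and the share of called genes that were higher from 52.89% to 29.76%, and 11 members were then higher and 8 lower. Of the 5 listed response genes 4 were called higher (Pmepa1, Skil, Ldlrad4 and Smad7) and 1 was not, and Tgfb1 itself was at 107, 98.1 and 93.8 in untreated and 776, 991 and 624 in treated spheroids.

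Fn1 rose most in level, from 492, 435 and 319 to 8515, 7649.7 and 4505 (log2 fold change 4.02 ± 0.22, adjusted p = 6.14e-07). Each treated library lay far above each untreated one. Tnc, another integrin ligand, rose from 195, 150.5 and 74.4 to 383, 538 and 291 (log2 fold change 1.59 ± 0.33, adjusted p = 0.00395), and Thbs1 from 25.5, 21.2 and 34.2 to 77.7, 123 and 79.5 (log2 fold change 1.75 ± 0.23, adjusted p = 0.000282). Neither pair of groups overlapped. Sparcl1, or hevin, a SPARC homologue, was listed at 0.0712, 0 and 0 in untreated and had 1.95, 3.64 and 6.19 in treated spheroids (log2 fold change 2.18 ± 0.26, adjusted p = 0.000174), the only group of the table in which it reached 1. Sparc did not differ detectably, at 1392, 1261 and 1173 and 1273, 1256 and 1336 (log2 fold change 0.02 ± 0.09). Tgfbi fell from 44.8, 37.1 and 18.9 to 4.50, 4.61 and 12.1 (log2 fold change -2.14 ± 0.36, adjusted p = 0.00117), as did Tnxb (-1.34 ± 0.39), whose groups overlapped and whose call was lost without untreated spheroid 1 or 2 or treated spheroid 1 or 2 (adjusted p up to 0.096). In all, 4 of 10 tested adhesive glycoproteins rose and 2 fell.

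Elastic fibre and microfibril genes had 4 of 6 tested members higher and 1 lower. Mfap5 went from 0.0422, 0 and 0.0595 to 1.33, 29.0 and 10.3 (log2 fold change 3.16 ± 0.68, adjusted p = 0.00474). The treated values were widely spread but lay above all untreated ones, and the log2 fold change of Mfap5 was 4.15 without treated spheroid 1 and 2.31 without treated spheroid 2. Fbln2 had 1.43, 1.08 and 0.491 and 5.32, 11.4 and 8.31 (log2 fold change 2.20 ± 0.28, adjusted p = 0.000257). Fbn1 rose too (1.34 ± 0.21 log2). Efemp2 rose by 0.28 ± 0.09 log2, which was not called with libraries scaled to equal sums (adjusted p = 0.536) or without untreated spheroid 1 or 2 or treated spheroid 1. Fbln5 went against the others, from 6.46, 5.59 and 17.4 to 3.15, 1.90 and 2.95 (log2 fold change -1.42 ± 0.31, adjusted p = 0.00481), with no overlap. Eln was at 31.7, 1.44 and 1.26 in treated spheroids, so that its mean rested on library 1, and it was not called (adjusted p = 0.0502).

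Proteoglycans rose in 2 of 3 tested cases. Bgn had 151, 142 and 790.4 in untreated and 2368, 968 and 802 in treated spheroids (log2 fold change 2.25 ± 0.58, adjusted p = 0.0117). The highest untreated value (library 3) and the lowest treated one nearly met, and the log2 fold change was 3.06 without untreated spheroid 3 and 1.77 without treated spheroid 1. Dcn had 256, 247 and 232 and 1064, 458 and 388 (log2 fold change 1.23 ± 0.28, adjusted p = 0.00682), with treated spheroid 1 far above the others. Without that library the log2 fold change of Dcn was 0.78. Both calls were lost when the 6 spheroid libraries were fitted alone (adjusted p = 0.0741 for Bgn and 0.0544 for Dcn), where 13 of 30 tested members and 21.6% of all genes were called.

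The basement membrane group had 1 of 10 tested members higher, Agrn (0.72 ± 0.15 log2), and 2 lower. Hspg2 had 189, 164 and 178 in untreated and 81.3, 41.0 and 76.1 in treated spheroids (log2 fold change -1.46 ± 0.20, adjusted p = 0.000392), with no overlap. Lamc1 fell with overlapping groups (-0.61 ± 0.21, adjusted p = 0.0431), a call lost without untreated spheroid 1 or 2 or treated spheroid 1 (adjusted p up to 0.154). Of the other matrix proteins Crispld2 rose from 0.396, 0.282 and 0.204 to 26.6, 32.6 and 25.3 (log2 fold change 4.49 ± 0.35, adjusted p = 9.68e-06), much as in monolayers. Dpt fell from 41.1, 31.4 and 53.9 to 0.865, 0.106 and 13.5 (log2 fold change -3.76 ± 0.71, adjusted p = 0.00232); treated library 3 kept a level the other treated libraries did not, and the log2 fold change of Dpt was -4.88 without it and -3.02 without treated library 2. Matn2 fell by a smaller amount (-0.47 ± 0.16), and without untreated spheroid 1 or 2 or treated spheroid 1 or 2 it was not called (adjusted p up to 0.134 over all alternatives).

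Of the ovarian surface and mesothelial markers, 8 of 10 tested were called lower and 0 higher with TGFB1 in spheroids (median log2 fold change -0.81), while their summed level was 234 to 451 in treated and 272 to 461 in untreated spheroids. Markers of other cell types also moved with TGFB1 in spheroids. Of the 2 tested endothelial markers 1 was called higher, and of the 3 tested smooth muscle and pericyte markers all 3 were. The 7 endothelial markers summed to 26.3 to 52.5 in treated spheroids and to 2.64 to 8.03 in untreated ones, almost all of it Cdh5, at 51.3, 32.8 and 23.9. Of the others, Pecam1 was at 0.996, 1.95 and 1.72 in treated and 2.12, 2.14 and 1.02 in untreated spheroids, Vwf at 0.0544, 1.45 and 0.30 and at 0.910, 1.70 and 0.102, and Kdr, Tek, Tie1 and Emcn were under 1 in the treated group. Of 7 smooth muscle and pericyte markers, 4 (Kcnj8, Myh11, Notch3 and Rgs5) were under 1 there. The 3 tested ones, all called higher, had a median log2 fold change of 1.88, where 18.8% of all genes were called higher. Cspg4 reached 1 in TGFB1-treated spheroids alone, so it had to differ to be tested. The smooth muscle and pericyte list summed to 22.9 to 40.6 in treated and 2.47 to 3.89 in untreated spheroids, and to 93.9 to 180 in treated and 20.3 to 25.5 in untreated monolayers. The 8 fibroblast and stroma markers summed to 368 to 385 in untreated and 124 to 169 in treated monolayers, 43.0 to 108 in untreated spheroids and 54.4 to 59.7 in treated ones. The 8 leukocyte markers summed to 19.3 to 26.8 in untreated and 8.22 to 10.9 in treated monolayers, 14.9 to 67.1 in untreated and 12.1 to 63.7 in treated spheroids. Most of that sum was Cd68, the only one tested, which was called higher in TGFB1-treated spheroids than in TGFB1-treated monolayers (1.87 log2); Ptprc, Csf1r, Adgre1, Cd3e, Cd79a and Lyz2 were under 1 in all 4 groups. The part of these genes in the members' results was not tested.

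TGFB1-treated spheroids were then compared directly with TGFB1-treated monolayers. Spheroids received the cytokine over 4 days before low-attachment culture, and the length of treatment in monolayers is not given. Culture and the timing of treatment therefore cannot be told apart here. Of 34 tested members 11 were called higher and 11 lower in spheroids, or 64.7%, where 51.9% of all genes were called (25.3% higher, 26.5% lower). Groups did not overlap in 24 members, against 59.4% of all genes, and the median log2 fold change was 0.14 for members and 0.00 for all genes. Scaling libraries to equal sums moved the median of all genes by -0.16 and the share of called genes that were higher from 48.85% to 33.10%, with 9 members higher and 12 lower. The treated groups were as listed above for each gene. Fbln5 was lower in spheroids by more than any other tested member, with 2.66 ± 0.670 against 1013 ± 52.6 (log2 fold change -8.13 ± 0.31, adjusted p = 1.38e-08). Nell2 (-5.49 log2), Ogn (-3.98), Thbs1 (-3.48), Nid2 (-3.23, and -4.01 without treated monolayer 1) and Sparc (-1.70) were lower too. Higher in spheroids were Tnc (log2 fold change 5.21 ± 0.33, adjusted p = 4.32e-07), Fn1 (log2 fold change 4.58 ± 0.22, adjusted p = 6.79e-08), Tgfbi (2.56), Smoc2 (2.51) and Sparcl1 (2.19). Dcn was not called, with 635, 580.1 and 595 in treated monolayers and 1064, 458 and 388 in treated spheroids (-0.07 ± 0.28, adjusted p = 0.851), a pair of groups that overlapped. Basement membrane genes had 3 of 10 higher (Agrn, Lama5 and Lamb2) and 5 lower (Nid2, Lama1, Hspg2, Lamb3 and Lamc1). The calls of Lama5 and Lamb2 were lost with equal sums (adjusted p = 0.156 and 0.065), and that of Lama5 also without treated monolayer 1 or 2 or treated spheroid 1.

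**Figure D4:**
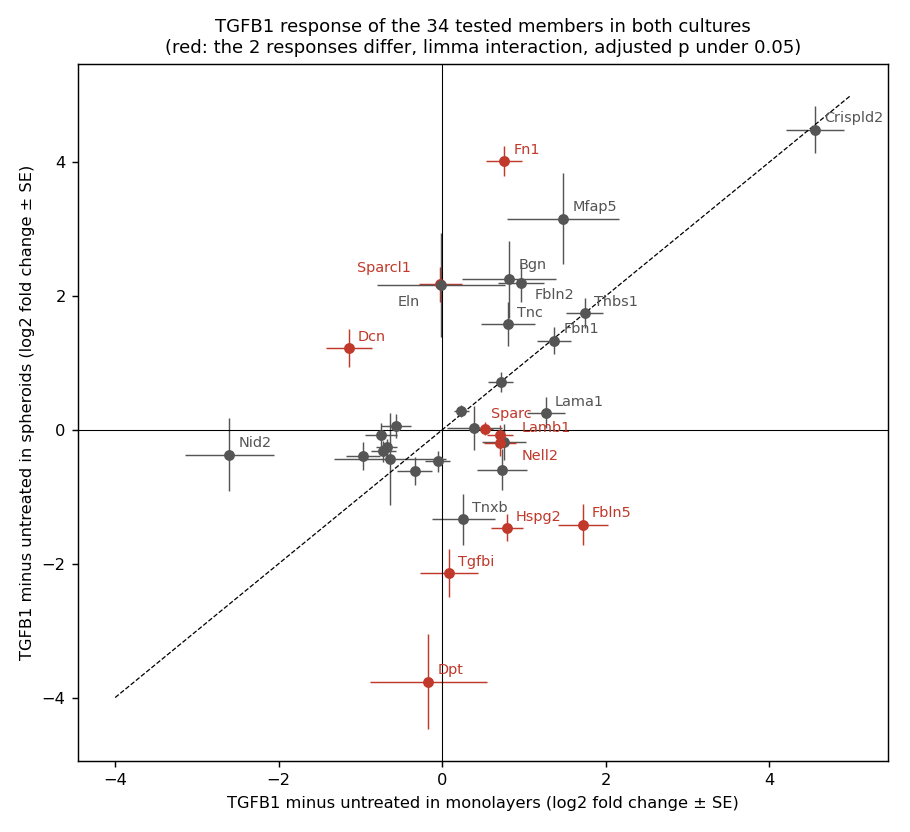
Each point is 1 of the 34 tested members. Its log2 fold change with TGFB1 in monolayers is on the x axis, and that with TGFB1 pretreatment in spheroids on the y axis. Bars give ± 1 standard error, and a dashed line marks equal response. The 10 members in red had responses that differed between cultures; Fn1 (0.76 and 4.02) and Dcn (-1.14 and 1.23) lie above the line, and Fbln5 (1.72 and -1.42) and Hspg2 (0.79 and -1.46) below it.

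Whether the TGFB1 response differed between cultures was tested as an interaction, the log2 fold change in spheroids minus that in monolayers. Here too, culture and the timing of treatment cannot be told apart. Side by side, 6 members (Agrn, Crispld2, Fbln2, Fbn1, Fn1 and Thbs1) were called higher in both cultures and 0 lower in both. Fbln5 and Hspg2 were higher in monolayers and lower in spheroids, and Dcn was lower in monolayers and higher in spheroids. A further 6 members were called in neither culture. The interaction was called for 10 of 34 tested members, 3 positive and 7 negative, or 29.4%, where 15.8% of all genes were called (8.72% positive, 7.11% negative). Equal sums moved the median of all genes by -0.20 and the share of positive calls from 55.10% to 27.64%, with 3 members positive and 10 negative.

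Fn1 responded more in spheroids, by 3.26 ± 0.31 log2 (adjusted p = 0.000111). Dcn had responses of opposite sign, with a difference of 2.37 ± 0.40 (adjusted p = 0.00324), and Fbln5 the reverse, with -3.14 ± 0.43 (adjusted p = 0.00105). In Dpt the difference of -3.60 (SE 1.0, adjusted p = 0.0345) rested on a gene under 1 in each monolayer library with and without TGFB1. Its call was ended by 11 of the 12 fits that left out 1 library. A pseudocount of 0.1 and a fit that kept low genes ended it too (adjusted p = 0.0892 and 0.0774). Sparcl1 (2.20), Hspg2 (-2.26) and Tgfbi (-2.23) were called with the smaller differences of Nell2 (-0.91), Lamb1 (-0.79) and Sparc (-0.51). Without treated spheroid 2 or 3 the difference for Dpt was -2.85 or -4.71. The call was lost in 7 of 12 fits without 1 library for Sparc and Lamb1 and in 10 for Nell2. Over those 12 fits 5 to 13 members were called, with the fewest without treated spheroid 2 (9.83% of all genes) and the most without untreated spheroid 3 (19.9%); without the spheroid libraries that stood apart 16 of 32 were called, and 23.8% of all genes. Of the 6 members called higher in both cultures Fn1 alone had a called interaction. Fbln2 had 1.24 ± 0.40 (adjusted p = 0.0573), and Crispld2, Thbs1, Fbn1 and Agrn had -0.07 ± 0.50, 0.01 ± 0.32, -0.04 ± 0.29 and -0.00 ± 0.22.

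Upstream DNA of the members was looked at for motifs of factors tied to these treatments. RefSeq starts (GRCm38.p6) were at hand for 30 of the 48 members, 39 in all. The 250 bases before each were searched on both strands for 5 motifs. The other members, Fn1, Dcn and Thbs1 among them, had no start in the reference used and were not searched. The SMAD box was searched as CAGACA and the E-box bound by Snail as CAGGTG. The AP-1 motif was searched as TGANTCA, the cAMP response element as TGACGTCA and the TATA box as TATAAA; no motif is contained in another. The SMAD box was in 12 of 39 member stretches (30.8%), from 11 genes, and in 17.1% of all 32851. For the Snail E-box the shares were 3 of 39 (7.7%) and 17.2%, for AP-1 3 (7.7%) and 6.7%, and for the cAMP element 0 and 1.5%. For the TATA box they were 6 (15.4%), from 5 genes, and 12.4%. Stretches of the same gene can overlap, as in Fbln1 and Tnc, and a site in both is counted in each. A match describes letters, not a bound site. Printed 5′ to 3′ on the gene's strand, with matches in capitals, are the 250 bases before the most upstream start of 4 members: Crispld2 and Agrn, called higher with TGFB1 in both cultures, Fbln5, called in opposite directions, and Tnc, called with Snail. Crispld2 (chr8:119992188-119992437, plus strand) holds TGTCTG, the SMAD box on the other strand, 159 bases before its start, and Tnc (chr4:64047016-64047265, minus strand) holds a TATA box 126 bases before its start. Agrn (chr4:156197489-156197738, minus strand) and Fbln5 (chr12:101819120-101819369, minus strand) hold none of the 5, and no stretch overlaps an annotated exon. Further starts of Fbln5 and Tnc, not shown, hold a SMAD box each.
Crispld2: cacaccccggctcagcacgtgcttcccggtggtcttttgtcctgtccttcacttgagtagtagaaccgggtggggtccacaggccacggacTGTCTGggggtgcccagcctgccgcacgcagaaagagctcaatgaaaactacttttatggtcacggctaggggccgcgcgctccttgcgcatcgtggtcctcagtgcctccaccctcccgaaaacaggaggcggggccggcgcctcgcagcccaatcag
Agrn: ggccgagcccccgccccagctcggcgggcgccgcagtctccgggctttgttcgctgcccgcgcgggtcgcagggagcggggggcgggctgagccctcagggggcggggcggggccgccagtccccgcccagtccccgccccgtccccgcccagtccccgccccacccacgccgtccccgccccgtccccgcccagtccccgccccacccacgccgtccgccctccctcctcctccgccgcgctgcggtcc
Fbln5: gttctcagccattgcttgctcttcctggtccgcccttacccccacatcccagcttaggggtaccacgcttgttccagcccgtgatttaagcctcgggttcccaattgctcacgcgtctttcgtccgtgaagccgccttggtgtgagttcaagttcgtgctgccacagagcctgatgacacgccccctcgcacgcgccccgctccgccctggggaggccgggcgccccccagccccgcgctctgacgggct
Tnc: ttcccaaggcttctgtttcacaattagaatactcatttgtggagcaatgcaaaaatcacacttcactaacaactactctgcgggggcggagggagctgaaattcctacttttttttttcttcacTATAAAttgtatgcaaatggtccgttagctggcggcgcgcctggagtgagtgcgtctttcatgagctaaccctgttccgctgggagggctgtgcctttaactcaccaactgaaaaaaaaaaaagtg

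Snail overexpression was compared with the WPI vector in m1102. Tenascin-C message was higher with Snail, and no other tested member was called. Of 26 tested members 1 was called higher and 0 lower by limma (3.85%), where 1.72% of all 12240 tested genes were called (0.572% higher, 1.14% lower); at an unadjusted p under 0.05 there were 4 higher and 2 lower. Groups did not overlap in 6 members, against 20.6% of all genes, and the median log2 fold change was 0.09 for members and 0.01 for all genes. Tnc had 2.26, 2.18 and 2.06 with the vector and 7.07, 5.35 and 4.46 with Snail (log2 fold change 1.05 ± 0.16, adjusted p = 0.027). The Snail libraries all lay above the vector libraries, and the call was kept in 1 of 6 fits without 1 library, that without Snail library 3 (adjusted p up to 0.116 over all alternatives).

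Fn1 had 388, 380.1 and 357 with the vector and 523, 441 and 539 with Snail (log2 fold change 0.41 ± 0.08, adjusted p = 0.0561). Its groups did not overlap, yet it missed the threshold. The others without overlap were Ecm1 (0.32 ± 0.09) and Matn2 (0.27 ± 0.08), higher, Fbln5, lower (-0.19 ± 0.07, adjusted p = 0.237), and Eln. Elastin was at 0.770, 0.562 and 0.879 with the vector and 2.23, 1.06 and 1.02 with Snail, so that it was tested only through the Snail group and had to differ; it was not called. Sparc (2739.8, 3014 and 3096 with the vector, 3000.2, 3121 and 2882 with Snail) and Dcn (748, 661 and 830.0 and 808, 801 and 648) had overlapping groups and log2 fold changes of 0.03 ± 0.07 and 0.01 ± 0.11. Postn and Tgfbi were under 1 in all 6 libraries. Crispld2, at 0.140, 0.318 and 0.346 and 0.738, 0.996 and 1.05, was higher in each Snail library but too low to be tested. None of the 10 tested basement membrane genes, 4 elastic fibre genes or 3 proteoglycans was called by limma; at an unadjusted p under 0.05 there were 0 higher and 1 lower, 0 and 1, and 0 and 0.

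**Figure D5:**
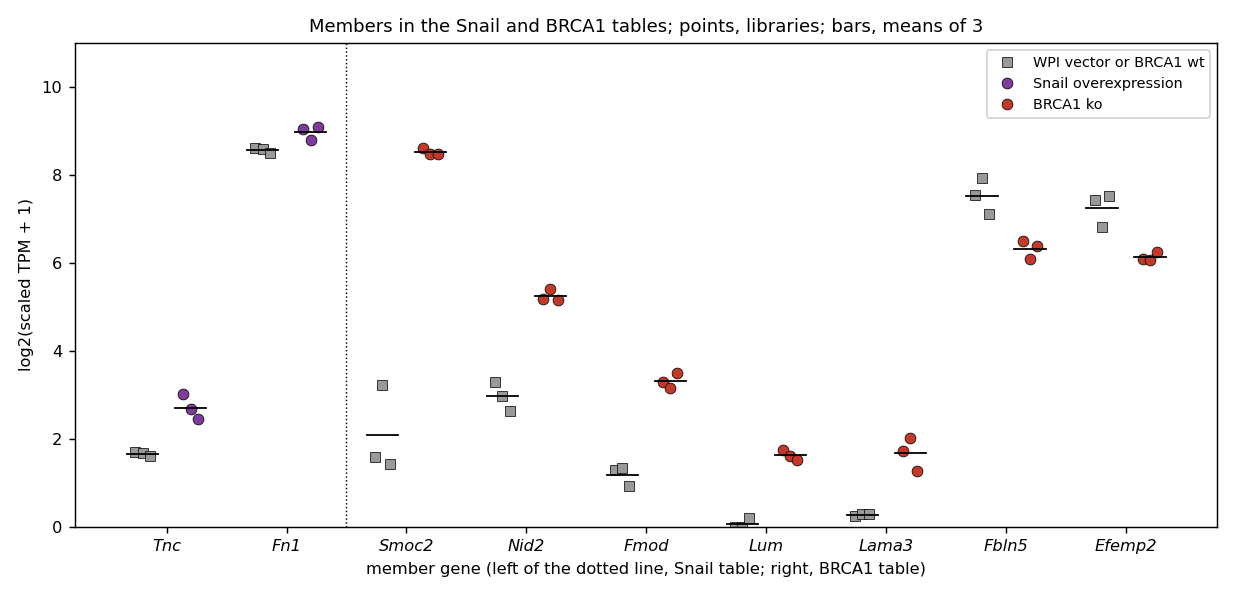
Points give log2(scaled TPM + 1) of single libraries with a bar at each mean of 3, for Tnc and Fn1 in the Snail table (left of the dotted line) and the 7 called members in the BRCA1 table (right of it); the tables were scaled separately. Smoc2 shows the widest gap, with ko libraries at 389.9, 355 and 355 and wt libraries at 2.00, 8.38 and 1.68 scaled TPM.

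The last comparison was of the libraries labelled BRCA1 ko with those labelled BRCA1 wt, in the floxed line. Libraries labelled ko had more message for Smoc2, nidogen-2, fibromodulin, lumican and laminin alpha 3, and less for fibulin-5 and fibulin-4. Of 35 tested members 5 were called higher and 2 lower, or 20%, where 14.3% of all 12775 genes were called (9.04% higher, 5.27% lower). Groups did not overlap in 20 members, against 44.9% of all genes. The median log2 fold change was -0.02 for members and 0.17 for all genes. Equal sums moved the median of all genes by 0.46, the share of called genes that were higher from 63.18% to 80.30%, and the member calls to 5 higher and 0 lower. Without library wt 2, 17 of 34 tested members and 66.2% of all genes were called, and without ko 1 only Smoc2 was left, with 0.463% of all genes. The 6 granulosa and theca markers summed to 129 to 225 in ko and 46.4 to 50.2 in wt libraries, with Cyp17a1, Cyp19a1 and Fshr under 1 in both groups. Amh was under 1 in the ko libraries as well. Of the 2 tested markers 1 was called higher by limma, and 2 were higher at an unadjusted p under 0.05. The 8 fibroblast and stroma markers summed to 56.8 to 69.5 in ko and 34.4 to 38.6 in wt libraries, with 5 and 3 markers at 1 or more and 0 of 3 tested called by limma (2 higher at an unadjusted p under 0.05). The part of both lists in the results was not tested.

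Smoc2 (chromosome 17, 14279506 to 14404790, plus strand), which stimulates growth factor signalling and cell attachment, had 389.9, 355 and 355 in ko and 2.00, 8.38 and 1.68 in wt libraries (log2 fold change 6.44 ± 0.47, adjusted p = 0.00112). The ko libraries were close to each other and far above the highest wt library, which was wt 2. The call of Smoc2 was kept in every alternative run, with a log2 fold change of 5.29 without both wt 1 and wt 3. Nid2 had 35.2, 41.4 and 34.5 and 8.81, 6.80 and 5.23 (log2 fold change 2.28 ± 0.25, adjusted p = 0.0035). Lama3, the alpha chain of epithelial laminin-332, had 2.32, 3.05 and 1.42 and 0.184, 0.221 and 0.226 (log2 fold change 1.40 ± 0.23, adjusted p = 0.0135). Neither pair of groups overlapped. The call of Nid2 was lost without ko 1 (adjusted p = 0.0583) and that of Lama3 without wt 1 (adjusted p = 0.0814). Lama3 missed the filter without any 1 of the ko libraries, so it was tested in 3 of 6 fits without 1 library and kept its call in 2. Its call was also lost with a replicate block.

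Of the 6 interstitial proteoglycans, all tested in this table, 2 rose. Fmod, fibromodulin, which binds collagen fibrils and TGF-beta, had 8.86, 7.87 and 10.4 in ko and 1.45, 1.51 and 0.907 in wt libraries (log2 fold change 2.14 ± 0.23, adjusted p = 0.00345); the call was lost without ko 1 (adjusted p = 0.0583). Lum, lumican, was at 2.35, 2.05 and 1.88 and listed at 0, 0 and 0.142 (log2 fold change 1.56 ± 0.18, adjusted p = 0.00403). Dcn had 904, 745 and 876 and 340.2, 615 and 409.6, without overlap and without a call (0.93 ± 0.32, adjusted p = 0.079). Vcan, the large proteoglycan versican, had 0.159, 0.574 and 0.488 and 1.21, 4.70 and 1.50, lower in each ko library, and was not called (-1.18 ± 0.38, adjusted p = 0.0698).

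The members that fell were elastic fibre genes. Fbln5 had 89.3, 67.0 and 82.2 in ko and 185, 243 and 138 in wt libraries (log2 fold change -1.21 ± 0.27, adjusted p = 0.0342), and Efemp2 had 66.5, 65.3 and 74.5 and 170.4, 111 and 181 (log2 fold change -1.12 ± 0.25, adjusted p = 0.0341). The groups did not overlap in scaled TPM, a statement that holds for this scaling only. Both calls were lost with equal sums (adjusted p = 0.31 and 0.144) and without any 1 of the ko libraries or wt 1. That of Efemp2 was lost without wt 3 as well. Elastin itself had 136, 209 and 86.4 and 206, 137 and 185 and was not called.

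Adhesive glycoproteins other than Smoc2 were not called. Tnc had 3.81, 2.79 and 10.8 in ko and 13.6, 26.4 and 12.8 in wt libraries, lower without overlap (-1.56 ± 0.49, adjusted p = 0.0668). Fn1 had 699, 666 and 805 and 534, 616 and 414, higher without overlap (0.49 ± 0.29, adjusted p = 0.22). Sparc (2239, 1696 and 2652 and 2509, 2344 and 2912) and Postn (6.29, 3.64 and 8.58 and 3.25, 4.65 and 7.31) had overlapping groups and changes of -0.26 ± 0.40 and 0.23 ± 0.37 log2. A missed threshold does not show that these genes were equal.

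Beside the members, 85 further noncollagen matrix genes were followed. In untreated spheroids against monolayers 16 of 37 tested were called higher and 12 lower (75.7%, against 55.2% of all genes), with Spp1 (osteopontin, 6.17 log2), Hmcn2 (a hemicentin, 4.23) and Sdc3 (a syndecan, 3.12) at one end and Npnt (nephronectin, -3.24), Cyr61 (-2.89) and Tinagl1 (-2.82) at the other. TGFB1 in monolayers gave 12 higher and 3 lower of 37 (40.5%, against 16.9%), led by Has2, a hyaluronan synthase (3.12), Ctgf (2.70) and Wisp1 (2.67), against Npnt (-1.76), Aebp1 (-1.30) and Prg4 (-1.17). TGFB1 in spheroids gave 14 higher and 8 lower of 37 (59.5%, against 35.6%), with Has2 (4.30), Cspg4 (4.03) and Sdc1 (3.82) against Bcan (-1.72), Sdc4 (-1.47) and Gpc6 (-1.29). The TGFB1-treated cultures differed in 14 higher and 11 lower of 37 in spheroids (67.6%, against 51.9%), and the interaction was called in 9 positive and 6 negative of 37 (40.5%, against 15.8%). Snail gave 2 higher, Gpc1 (0.57) and Sdc1 (0.53), and 0 lower of 30 by limma (6.67%, against 1.72%), with 7 higher and 4 lower at an unadjusted p under 0.05. The BRCA1 table gave 6 higher and 2 lower of 33 (24.2%, against 14.3%), with Papln (2.70), Fras1 (2.48) and Gpc1 (1.64) against Hmcn1 (-2.61) and Cyr61 (-1.23). This list, too, was chosen with results of these data known, and genes of it that passed the filter through 1 group had to differ.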

How the data were processed

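RNA of 24 libraries was measured. Per the submitters' processing notes, the authors used kallisto 0.44.0, sleuth 0.30.0 and GRCm38. The authors deposited a signal per gene and library, TPM multiplied by a factor per library (scaled TPM), in 3 tables scaled separately, and result tables with p-values and q-values and with coefficients on the natural log scale. Identifiers matched GENCODE M21 for 98.1% to 98.2% of genes.

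Groups came from the labels. The labels tie untreated monolayers 1 and 2 to 1 earlier sample. Their values differed (r = 0.991), and both were kept. This r cannot tell whether they are independent, since untreated monolayer 3 correlated with them at up to 0.993. The test planned for TPM was kept for scaled TPM, which does not sum to 1000000: limma 3.58.1 in R 4.3.3 with a mean-variance trend on log2(scaled TPM + 1), a mean per group, and Benjamini-Hochberg adjustment, with the 12 monolayer and spheroid libraries in 1 fit and the 6 libraries of each other table in their own. Genes at 1 or more in at least 3 libraries were tested; calls are at adjusted p under 0.05. The fit was tested on simulated data. Tables used Python 3.11.15, pandas 2.3.3 and numpy 2.4.6, and figures matplotlib 3.10.9. Read depth is not given in the sources used here.

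The members and lists were chosen with earlier results of these data known. Library values were to be given for up to 8 called members with the largest changes and separate groups in each comparison, and always for Fn1, Tnc, Sparc, Postn, Tgfbi and Dcn. Alternatives were another pseudocount (0.1), no filter, 2 other scalings, a replicate block, library weights, the compared libraries alone and leaving out libraries. Marker lists covered ovarian surface and mesothelial, fibroblast and stroma, smooth muscle and pericyte, endothelial, leukocyte, and granulosa and theca cells.
One gene of the planned check of the TGFB1 treatment is not reported here.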

Additional observations from a re-analysis of the deposited data

Results flagged for a closer look

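For 10 members the response to TGFB1 differed between spheroids and monolayers by limma's interaction test, and these 10 were picked out for that reason. The difference is the log2 fold change in spheroids minus that in monolayers, and culture and the timing of treatment cannot be told apart in it. It was positive for the adhesion glycoprotein gene Fn1 (3.26), the collagen-binding proteoglycan gene Dcn (2.37) and the SPARC homologue Sparcl1 (2.20). It was negative for Dpt (-3.60), Fbln5 (-3.14), the perlecan gene Hspg2 (-2.26), Tgfbi (-2.23), Nell2 (-0.91), Lamb1 (-0.79) and Sparc (-0.51). Of these 10 calls, 6 were kept in every alternative in which the member was tested. Sparcl1, 1 of the 6, was tested in only 9 of the 12 fits that left out 1 library. It passed the filter through TGFB1-treated spheroids alone, so fits without 1 of them could not end its call.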

How the results depend on the processing

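Depth is unknown, so no limit of detection can be given, and 3 libraries a group limit every test. Over all alternatives run, 22 to 27 members were called in untreated spheroids against monolayers (23 in the report), 12 to 27 with TGFB1 in monolayers (18), 13 to 22 with TGFB1 in spheroids (19) and 21 to 23 between the TGFB1-treated cultures (22). Of the reported calls 22 of 23, 11 of 18, 13 of 19 and 20 of 22 were kept wherever the member was tested. So were 6 of 10 in the interaction, 0 of 1 with Snail and 2 of 7 in the BRCA1 table. Some fits could not end a call, because the member missed the filter without a library of its high group. Lum and Lama3 in the BRCA1 table, and Sparcl1 in both comparisons of TGFB1-treated spheroids, were tested in 3 of 6 fits without 1 library.

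The interaction count went from 10 to 19 with library quality weights and 16 without both untreated spheroid 3 and TGFB1-treated spheroid 1, and from 5 to 13 when 1 library was left out. The Snail count was 0 with no filter on low values and 0 to 1 when 1 library was left out; limma's unadjusted p was under 0.05 for 8 members with no filter. The BRCA1 count went to 34 with quality weights, whose estimation stopped before it converged in 1 table, and 1 to 17 when 1 library was left out. The cause of these shifts was not tested.

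Crispld2 in TGFB1-treated spheroids against monolayers changed sign without treated monolayer 1 (0.477, adjusted p = 0.0199; -0.381 to 0.477 over the 6 such fits). Smoc1 with TGFB1 in spheroids (-0.63) and the Smoc2 interaction (-1.21) changed sign without both spheroid libraries, and Thbs3 (0.90) and Agrn (0.27) in the BRCA1 table with weights. These 5 were not called in the report; the cause was not tested. Single members otherwise kept direction and side of the threshold in 2962 cases, passed it newly in 111 and lost it in 148.

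Counts over all genes moved too. TGFB1 in monolayers gave 2284, and 6431 with weights or 3771 with its 6 libraries alone; in spheroids it gave 4810, and 2787 with its 6 libraries. The interaction gave 2138, and 4385 with weights. Snail gave 210, and 54 with no filter. The BRCA1 table gave 1828, and 1091 with no filter, 878 with equal sums and 11536 with weights.

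Deviations of same-numbered libraries from their group means had correlations of -0.320 to 0.186, -0.078 to 0.331 and -0.167 to -0.053 in the 3 tables. Differently numbered libraries were not set beside them, so these values cannot tell whether the numbers pair the libraries. With a replicate block the member counts were 23, 17, 17, 22, 9, 0 and 4 in the order above, and the counts over all genes 16 with Snail and 433 in the BRCA1 table; limma's unadjusted p was under 0.05 for 7 members with Snail under the block.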

Other observations

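In the authors' deposited table for monolayers and spheroids, 35 of the 38 members listed had a q-value under 0.05 in a test over all terms, with 15 positive and 20 negative culture coefficients among them. The authors' deposited table for Snail listed 36 members, of which 3 were under 0.05. These were Tnc (log2 coefficient 1.35), the secreted LCCL-domain gene Crispld2 (1.84) and Fn1 (0.41), all positive in the authors' deposited table, where the limma fit on scaled TPM called Tnc alone and had not tested Crispld2. In the authors' deposited table for BRCA1, 17 of 44 members were under 0.05, 9 positive and 8 negative, where Smoc2, higher in the libraries labelled ko, has a positive sign. Its largest positive coefficient among the genes named above was that of Smoc2 (6.58 on the log2 scale in the authors' deposited table), and Vcan (-2.79) and Tnc (-2.10) were negative there, both without a call by limma. The authors' deposited table also lists Thbs2 with a positive coefficient, a gene under 1 in all 24 libraries.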
